A study of Drosophila melanogaster with 2 samples.

Results

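The genes described here pattern the imaginal discs of the larva and turn the eye disc into photoreceptors. They form a list of 40 members that was set by name, not by any measured value, and 39 of them were found among the 12407 named genes on the array. Of these, 38 were matched by the symbol in the authors' annotation and 1 by an older name, omb, which the table lists as bi. The member brk was not analysed here. The list holds 25 measured early patterning genes and 14 photoreceptor differentiation genes, which are treated apart. Ck1alphaRNAi larvae (Dcg-Gal4 X UAS-Ck1alphaRNAi) were compared with control larvae (Dcg-Gal4 X w1118), with 1 array for each genotype and 20 whole larvae pooled for each array. Both groups thus carried the Dcg-Gal4 driver, which targets the fat body, whereas the hairpin transgene was present in the Ck1alphaRNAi larvae alone. All larvae were labelled female, feeding and mid-third instar, and per the labels were raised for 6 days at the same temperature. According to the methods, the Ck1alphaRNAi cultures were begun a day ahead of the controls. The signals went against the labelled sex, since 6 of 6 transcripts of the male germ line, chosen after their values were seen, were well detected on both arrays (271 to 1038 in Ck1alphaRNAi larvae, 682 to 1764 in control larvae, such as Mst87F and ocn). The share of males in each pool is not known.

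Imaginal discs are epithelial sacs set aside in the larva that form the adult eye, antenna, wing, leg and other structures. Early patterning genes, most of them transcription factors, divide each disc into fields. In the eye disc, retinal determination genes give the tissue its identity, and from the third instar a wave called the morphogenetic furrow crosses the disc and leaves behind it rows of differentiating photoreceptors, of which R8 is made first and R7 last. Notch, a receptor that is activated by ligands on neighbouring cells, acts in nearly all of these steps. Many of these genes are also used in the larval nervous system, gut or epidermis, so a signal from whole larvae is not a signal from discs alone. In such bulk RNA, fewer cells of a type and less RNA per cell cannot be told apart.

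Each value is a MAS5 signal, the linear intensity of a probe set, which the authors had already scaled between arrays. Genes were called detected when either array reached 100, and 1 probe set was used for each gene, the one with the highest mean signal. There is no replicate array, so no p-value is given. The only measure of error is the SD of log2 ratios between probe sets that target 1 gene, which was 0.41 over 433 genes and leaves out the spread between pools of larvae. This SD is used throughout. It was smaller, 0.29 over 377 genes, among probe sets of at least 100 on both arrays. As a background level, the brightest of 17 tag control probe sets, which match no fly transcript, gave 53.3 for Ck1alphaRNAi and 33.1 for control. Where the lower signal of a gene fell under this level, its fold is a bound against it. The silenced gene, Ck1alpha, gave 2055 in Ck1alphaRNAi and 2665 in control larvae, a whole-larva ratio of 0.771. Its log2 ratio of -0.37 was smaller in size than the SD of 0.41, though larger than 0.29.

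Most of the detected members had a lower signal in Ck1alphaRNAi larvae, by modest amounts. Of 30 detected members, 23 (76.7%) were lower in Ck1alphaRNAi larvae, whereas 52.3% of all 8878 detected genes were. Taken apart, 15 of 20 early patterning genes and 8 of 10 photoreceptor differentiation genes were lower. The median log2 ratio of Ck1alphaRNAi over control was -0.35 for the members and -0.02 for all detected genes. At 2-fold the members did not stand out. Only Dl and sc were at least 2-fold lower, which is 6.67% of the detected members beside 6.86% of all detected genes, and no member was at least 2-fold higher, beside 2.83% of all detected genes. More members lay between these limits. In all, 12 of 30 (40.0%) were lower by more than the SD between probe sets, beside 19.6% of all detected genes. They include 7 of 20 early patterning genes (35%). Another 2 (ap and aos) were higher by more than that SD, beside 12.6%. With the smaller SD, eya, hth, Antp, salm, vg and da were also lower beyond it, which makes 18 of 30, beside 25.5% of all detected genes. For hth and Antp this rests on the brightest probe set, since a second detected one gave log2 ratios of -0.01 for each. The other way round, 7 of 30 had the higher signal in Ck1alphaRNAi larvae, beside 47.7%.

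The filter bears on these counts, since sc, sev and sens were detected through the control array alone and aos through the Ck1alphaRNAi array alone. Among the 26 members with at least 100 on both arrays, 20 were lower and the median log2 ratio was -0.33, beside 0.00 for the 8018 genes of that kind. Of these 26, 9 (34.6%) were lower by more than the SD of 0.41, beside 14.8% of those genes. With the smaller SD of 0.29 it was 15 of 26 (57.7%), beside 20.8%. Without any filter, 30 of 39 members were lower (76.9%) beside 53.9% of all named genes. Other genes of similar signal leaned the same way, but less. Among the 5257 detected genes with a mean signal of 100 to 700, the range that holds most of the members, 55.6% were lower, 22% were lower by more than the SD between probe sets, and the median log2 ratio was -0.05. Other transcription factor genes, as annotated in the authors' table, had a median of -0.07 over 263 detected genes.

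**Figure D1:**
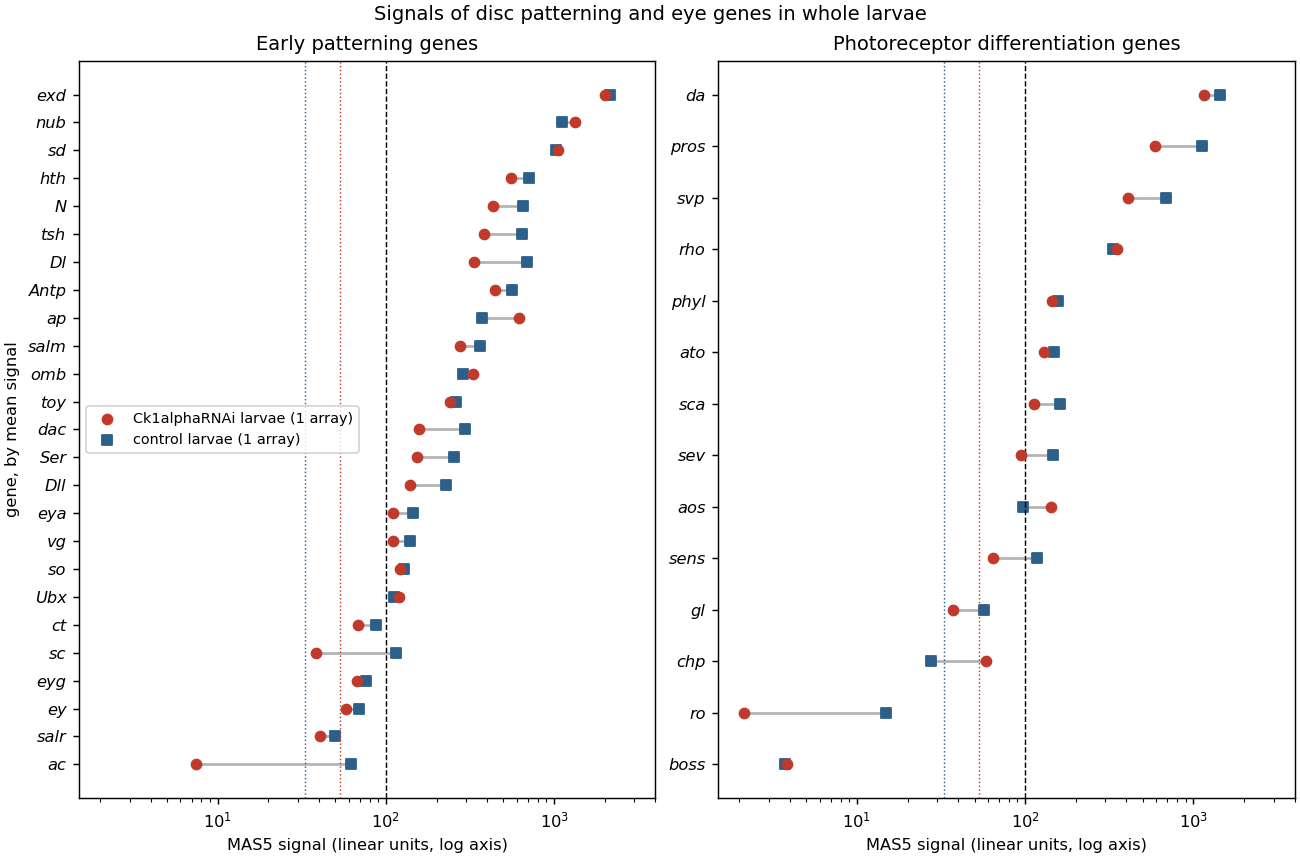
MAS5 signal (log axis) of each measured member in Ck1alphaRNAi larvae (red circles, 1 array) and control larvae (blue squares, 1 array), with early patterning genes on the left and photoreceptor differentiation genes on the right. The dashed line marks a signal of 100 and the dotted lines the brightest tag control of each array (53.3 for Ck1alphaRNAi in red, 33.1 for control in blue). The red circle lies left of the blue square for 30 of 39 genes.

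Markers of stage and of other tissues also differed between the arrays. All 12 listed storage protein, fat body protein and salivary glue genes were at least 2-fold lower in Ck1alphaRNAi larvae. Of all detected genes, 6.86% were. Transcripts of these 12 build up during the third instar. Their median log2 ratio was -3.71, with a summed signal of 26888 in Ck1alphaRNAi larvae against 219198 in controls. Storage and fat body proteins are products of the fat body, which the driver targets. DNA replication genes, which dividing disc and brain cells express but which are not limited to them, had a median of -0.19 over 15 genes. Of these, 11 (73.3%) were lower, beside 52.3% of all detected genes, and none was 2-fold changed (summed signal 6128 against 6775). Neuron markers went the other way, with 8 of 9 detected genes higher in Ck1alphaRNAi larvae, beside 47.7% of all detected genes. They had a median of 0.18 and a summed signal of 3847 against 3525. Of the 12 measured markers, 3 were under the tag control level on both arrays. Muscle markers had a median of 0.10 over 12 genes, with a summed signal of 187901 against 172630. Fat body transcripts had a median of -0.57 over 11 genes, with a summed signal of 65592 against 96947. The part of stage or of tissue makeup in the members' ratios was not tested, and in this design slower development cannot be told apart from other effects of the knockdown.

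Retinal determination genes were lower as a group, but apart from dac the differences were small. The nuclear protein gene dac, which acts in the eye and in the middle of the leg, read 156 in Ck1alphaRNAi and 294 in control larvae, 1.88-fold lower (log2 ratio -0.91). This exceeds the SD between probe sets, though the gene has a single probe set. The phosphatase and coactivator gene eya gave 110 in Ck1alphaRNAi and 144 in control larvae, a log2 ratio of -0.39. Its partner, the homeobox gene so, gave 120 and 128 (log2 ratio -0.09). The Pax6 gene toy, which acts at the top of the cascade, gave 240 in Ck1alphaRNAi and 261 in control larvae, but 103 against 95.8 on a second detected probe set. Thus eya, so and toy differed by less than the SD between probe sets, and only eya passed the smaller SD. The direction of so also turned under another scaling, with log2 ratios of 0.12 after quantile normalization and 0.09 after lowess. The other Pax6 gene, ey, stayed under 100 on both arrays, with 58.1 in Ck1alphaRNAi and 69.6 in control larvae. The Pax gene eyg, which promotes growth of the eye disc, gave 67.6 and 75.8. Both were above the tag control level. On their brightest probe sets, 6 of 6 genes of the cascade had the lower signal in Ck1alphaRNAi larvae, beside 53.9% of all named genes.

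Notch and both of its ligands were lower by more than the SD between probe sets. The ligand gene Dl gave 334 in Ck1alphaRNAi and 688 in control larvae, 2.06-fold lower (log2 ratio -1.04). This value depends on the probe set. A second Dl probe set, designed to another transcript of the gene, gave 306 against 347, a log2 ratio of -0.18. The ligand gene Ser gave 153 in Ck1alphaRNAi and 254 in control larvae, 1.66-fold lower. The receptor gene N gave 431 against 657, 1.53-fold lower. Ser and N have 1 probe set each, and their log2 ratios were -0.73 and -0.61.

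Among genes of the appendage axes and of segment identity, tsh and Dll stood out. The zinc finger gene tsh, which marks the proximal parts of appendages and the trunk, gave 384 in Ck1alphaRNAi and 646 in control larvae, 1.68-fold lower. The homeobox gene Dll, which marks the distal part of legs and antennae, gave 140 against 229, 1.64-fold lower. A second detected probe set of Dll gave 120 in Ck1alphaRNAi and 181 in control larvae, in the same direction. The homeobox gene hth, which like tsh marks proximal tissue, gave 552 against 711, a log2 ratio of -0.36, but 517 against 521 on its second probe set. Its partner exd gave 2009 in Ck1alphaRNAi and 2151 in control larvae, a log2 ratio of -0.10. Neither differed by more than the SD between probe sets. The same was true of the Hox genes. Antp gave 444 in Ck1alphaRNAi and 559 in control larvae, with 313 against 314 on another probe set, and Ubx gave 119 against 112. The homeobox gene ct, which acts in sense organs and at the wing margin, was under 100 on all 3 of its probe sets. The brightest gave 67.9 against 87.3. Each had the lower signal in Ck1alphaRNAi larvae, where the dimmest was under the tag control level.

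The wing field genes differed in both directions. The LIM homeobox gene ap, which defines the dorsal compartment of the wing, gave 617 in Ck1alphaRNAi and 370 in control larvae, 1.67-fold higher (log2 ratio 0.74). Another ap probe set read 364 in Ck1alphaRNAi and 252 in control larvae, so that both were higher by more than the SD between probe sets. The POU gene nub, which marks the wing pouch, gave 1325 in Ck1alphaRNAi and 1107 in control larvae, and the T-box gene omb, a target of Dpp signaling, 330 against 287. The TEAD gene sd, whose protein binds that of vg to specify wing, gave 1054 in Ck1alphaRNAi and 1026 in control larvae. Its partner vg gave 111 against 139, and a second, dimmer vg probe set gave 9.77 against 80.8, under the tag control level in Ck1alphaRNAi larvae. The zinc finger gene salm, another Dpp target, gave 276 in Ck1alphaRNAi and 364 in control larvae. Hence 4 of 6 detected wing field genes were higher in Ck1alphaRNAi larvae, beside 47.7% of all detected genes. Of these 4, only ap passed the SD between probe sets, and nub, omb and sd did not pass the smaller SD either. The group is too small to be set apart from the other members. The neighbour and relative of salm, salr, gave 40.5 in Ck1alphaRNAi and 50.003 in control larvae, both under the 53.3 of the brightest tag control, too low for a fold.

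The proneural genes of the bristles, ac and sc, were both near background in Ck1alphaRNAi larvae. The basic helix-loop-helix gene sc gave 38.2 in Ck1alphaRNAi larvae, under the tag control level, and 114 in control larvae, which makes it at least 2.15-fold lower. Its neighbour ac gave 7.43 in Ck1alphaRNAi and 62.3 in control larvae, at least 1.17-fold lower. In the reference annotation 0 protein-coding genes lie between ac and sc, and 0 between salm and salr.

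**Figure D2:**
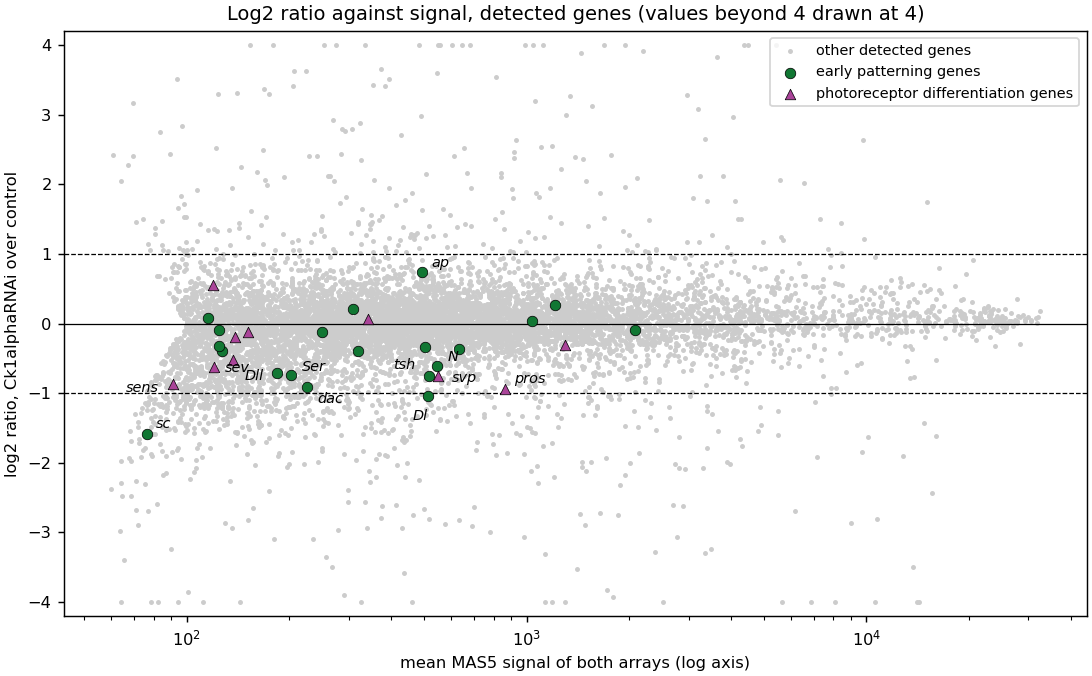
Log2 ratio of Ck1alphaRNAi over control against the mean MAS5 signal of both arrays (log axis) for all 8878 detected genes, with early patterning genes as green circles and photoreceptor differentiation genes as purple triangles. Dashed lines mark 2-fold, and members whose log2 ratio exceeds 0.6 in size are named. Most members lie below 0 within the grey cloud, Dl and sc fall under the lower line, and ap lies above 0 at 0.74.

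Photoreceptor differentiation genes were lower in 8 of 10 detected cases, with a median log2 ratio of -0.41, beside 52.3% of all detected genes. Of the 10, 5 were lower by more than the SD between probe sets, beside 19.6%, but sens and sev among them were detected through the control array alone. Over the 7 genes with at least 100 on both arrays the median was -0.31, and 3 (pros, svp and sca) were lower beyond the SD, beside 14.8% of all genes of that kind. Genes that specify R8, the founder photoreceptor, came first in this order of events. The zinc finger gene sens, which maintains R8 and other sense organ precursors, gave 64.2 in Ck1alphaRNAi and 118 in control larvae, 1.83-fold lower. The proneural gene ato, which selects R8, gave 129 against 148, and its ubiquitous partner da gave 1160 against 1433. The secreted protein gene sca, which spaces the R8 cells, gave 113 in Ck1alphaRNAi and 161 in control larvae, 1.43-fold lower. A dimmer probe set of sca, under 100 on both arrays, gave 75.2 against 70.8, in the opposite direction. All 4 of these genes were lower on their brightest probe set, and sens and sca passed the SD between probe sets.

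Among genes of later photoreceptor fates, pros, svp and sev were lower by more than the SD between probe sets. The homeobox gene pros, which acts in R7 and the cone cells and also in dividing neural precursors and gut endocrine cells, gave 591 in Ck1alphaRNAi and 1134 in control larvae, 1.92-fold lower (log2 ratio -0.94). The nuclear receptor gene svp, which specifies a subset of outer photoreceptors and is also used in the heart, gave 406 against 688, 1.69-fold lower. Dimmer svp probe sets gave 51.5 against 86.3 and 9.87 against 12.9. The first was under the tag control level in Ck1alphaRNAi larvae and the second on both arrays, so they add little. The receptor tyrosine kinase gene sev, which R7 needs, gave 94.8 in Ck1alphaRNAi and 146 in control larvae, 1.54-fold lower, and the gene phyl, which acts downstream of it, gave 145 against 157. The ligand of sev, boss, gave 3.86 and 3.72, and the homeobox gene ro gave 2.12 and 14.8. Both boss and ro were under the tag control level on both arrays, so no fold is given for them.

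Genes of the EGF receptor signal, which recruits photoreceptors, differed in both directions. The protease gene rho, which releases the ligand, gave 351 in Ck1alphaRNAi and 335 in control larvae. The secreted inhibitor gene aos, which the signal itself induces, gave 142 against 97.4, 1.46-fold higher (log2 ratio 0.55). Of these members, only aos passed the SD between probe sets. Outside the members, the receptor gene Egfr gave 221 in Ck1alphaRNAi and 300.4 in control larvae (log2 ratio -0.45), lower beyond that SD. The ligand gene vn gave 164 against 102 (log2 ratio 0.68), higher beyond it. The ligand gene spi (1269 against 1246) and S, which acts in the release of spi (263 against 281), differed by less.

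Genes of photoreceptor maturation were near background in these larvae. The zinc finger gene gl gave 37.3 in Ck1alphaRNAi larvae and 57.0 in control larvae, at least 1.07-fold lower. The cell surface gene chp, a marker of all photoreceptors, gave 58.2 against 27.7, at least 1.76-fold higher by the 33.1 of the control array. Its 58.2 was itself little above the 53.3 of the brightest tag control in Ck1alphaRNAi, so this difference may lie within background. Opsin genes lay at a similar level. The signals of ninaE, Rh3, Rh4 and Rh5 were all under 100, from 20.0 to 47.4 in Ck1alphaRNAi and from 27.3 to 59.1 in control larvae. The exception was Rh6, with 279 in Ck1alphaRNAi and 388 in control larvae. Thus 20 of 25 measured early patterning genes were detected in these larvae, while gl, chp and 4 of 5 opsins were not. The split was not complete, since norpA, a gene of the visual cascade, was detected, while trpl and ninaC, also listed, were not. In whole larvae the signals of Rh6 and norpA need not come from the eye disc.

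**Figure D3:**
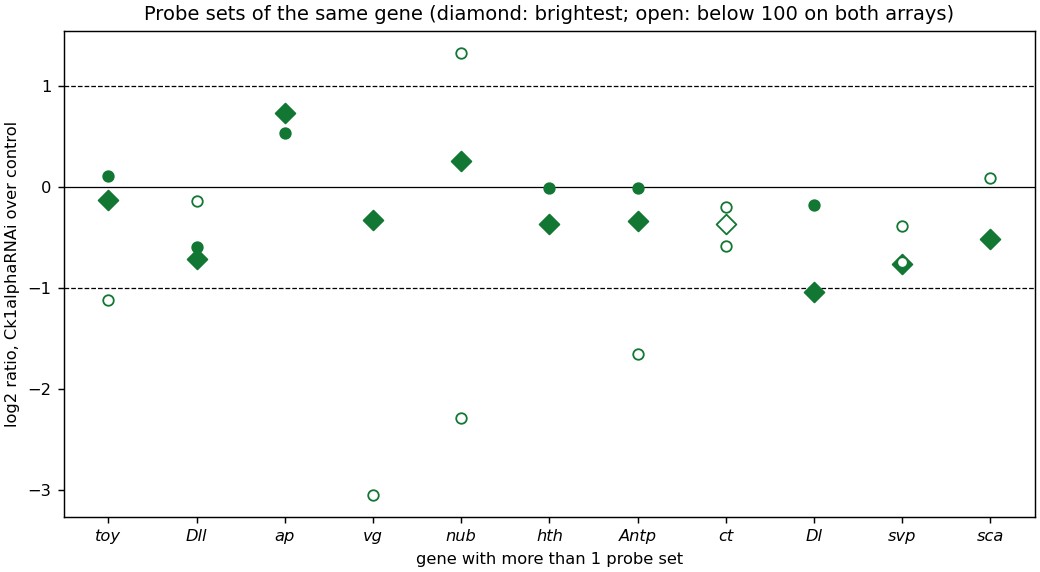
Log2 ratio of Ck1alphaRNAi over control for each probe set of the 11 members with more than 1 probe set, with diamonds for the brightest probe set and open symbols for those under 100 on both arrays. The detected probe sets of ap and of Dll lie close together, whereas those of Dl lie at -1.04 and -0.18.

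The other eye genes listed from general knowledge leaned the same way less strongly. Of 37 measured, 23 were detected, with a median log2 ratio of -0.17. Of these 23, 15 (65.2%) had the lower signal in Ck1alphaRNAi larvae, beside 52.3% of all detected genes. The distal antenna gene danr gave 75.5 in Ck1alphaRNAi and 182 in control larvae, a log2 ratio of -1.27, and was the only one at least 2-fold lower. It was detected through the control array alone. The homeobox gene ara had a log2 ratio of -0.46. Higher signals were found for neur, a ubiquitin ligase that activates Notch ligands (436 in Ck1alphaRNAi, 291 in control larvae), the neural stem cell gene dpn (168 against 114) and the phospholipase gene norpA of the visual cascade (384 against 271). None of these 3 was 2-fold higher.

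Of 50 measured other disc patterning genes, 32 were detected, with a median log2 ratio of -0.12. Of these 32, 19 (59.4%) were lower, beside 52.3% of all detected genes. The 2 genes at least 2-fold higher were ems, a homeobox gene of the head, with 504 in Ck1alphaRNAi and 186 in control larvae, and the GATA gene pnr of the dorsal thorax, with 283 against 125. The morphogen gene dpp gave 1201 against 624, a log2 ratio of 0.94. In the other direction, the zinc finger gene disco gave 120 in Ck1alphaRNAi and 240 in control larvae, just short of 2-fold, the homeobox gene Dr gave 220 against 408, and sob gave 106 against 169. Genes of both directions therefore stood in this list, and none of its members was 2-fold lower.

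Notch pathway genes and targets had a median log2 ratio of -0.15 over 26 detected genes outside the members. Of these 26, 17 (65.4%) were lower, beside 52.3% of all detected genes. Targets in the Enhancer of split complex differed among themselves. Its HLH genes repress proneural genes, whereas its BFM genes belong to the Bearded family. E(spl)mdelta-HLH, detected through the control array alone, gave 98.5 in Ck1alphaRNAi and 199.97 in control larvae, a log2 ratio of -1.02. E(spl)malpha-BFM gave 144 against 269. E(spl)m2-BFM gave 109 against 182. E(spl)mgamma-HLH (110 against 152) and E(spl)m3-HLH (486 against 570) were also lower. E(spl)mbeta-HLH (493 against 436) and E(spl)m4-BFM (207 against 176) were higher in Ck1alphaRNAi larvae. Ocho, another Bearded family gene, was higher too, with 142 in Ck1alphaRNAi and 83.0 in control larvae, but was detected through the Ck1alphaRNAi array alone. Also higher was Nct, a subunit of the protease that cleaves Notch, with 983 in Ck1alphaRNAi and 676 in control larvae. Genes of disc growth and planar polarity had a median of -0.09 over 24 genes, none of them 2-fold changed. Within that list the atypical cadherin gene ft gave 764 against 1262 and the myosin gene d, which acts below it, 542 against 893. The phosphatase gene stg, a driver of mitosis, gave 1169 in Ck1alphaRNAi and 788 in control larvae, and the Wnt receptor gene fz 317 against 221.

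**Figure D4:**
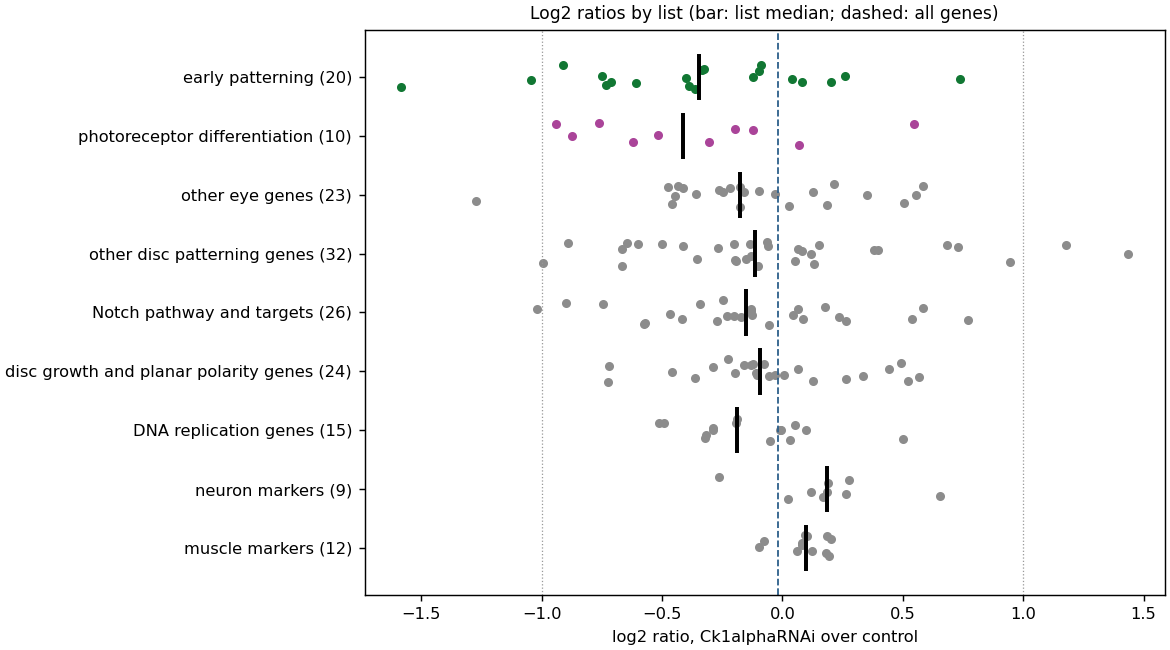
Log2 ratio of Ck1alphaRNAi over control for the detected genes of each list (number in brackets), with members in colour and other lists in grey. Black bars mark list medians, the dashed line the median of all detected genes (-0.02) and dotted lines 2-fold. The bars of both member groups, at -0.35 and -0.41, lie left of those of the other lists shown, which run from -0.19 to 0.18. Not drawn are the storage protein, fat body protein and glue genes (-3.71) and the fat body transcripts (-0.57). Their medians lie further left than those of the members.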

How the data were processed

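RNA of 20 whole larvae per genotype was labelled for the Affymetrix Drosophila 2 GeneChip, 1 array per group. Per the labels, the authors processed the arrays with MAS5, version 5, and deposited the intensity of each of 18952 probe sets on a linear scale. After trimming 2% from either tail, both arrays averaged 500.02, so scaling was already done. The scaling target, detection calls and genome build were not given in the sources used here, and no coordinates are printed. The labels name Trizol for the extraction and the methods a kit. A deposited fold change column, the authors' own comparison, was not used. Names came from the authors' table and from RefSeq (Release 6 plus ISO1 MT). 13689 probe sets had 1 symbol, 524 several names of 1 gene, 14 were named through their transcript, 784 carried several genes and 3941 no name, and these last 2 kinds were left unnamed. No pseudocount entered the ratios, which have Ck1alphaRNAi on top. With 1 array per group, the number of arrays limits the precision and no test was made. The calculation was tested on simulated data.

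The members were set by name and not by any measured value. They and the lists were still chosen with earlier results of these data known. Every measured member is named. Of each related list, up to 4 detected genes with the largest log2 ratio in size and up to 2 in the other direction are named. Undetected opsin genes, trpl, ninaC, Egfr, vn, spi, S, some Enhancer of split genes and the male germ line genes were named after values were seen. The range of 100 to 700, the counts beyond either SD and the groups drawn from the annotation were also chosen after that. The tag control level is strict, since the median tag control read 5.23 (Ck1alphaRNAi) and 6.41 (control). Alternatives were median centring, quantile normalization, lowess, a pseudocount of 16, other probe sets, other filters, no probe sets open to cross-hybridization, and the second deposited table, whose intensity values are the same. The software was pandas 2.3.3 and numpy 2.4.6 under Python 3.11.15, with lowess from statsmodels 0.14.6, scipy 1.17.1, and matplotlib 3.10.9 for plots.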

Additional observations from a re-analysis of the deposited data

How the results depend on the processing

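No paired analysis was possible because each group has 1 array, and for the same reason no array could be left out. The 13 alternatives kept the lower median of both member groups, and 27 of 30 detected members kept their direction under all of those that could be computed for them. The exceptions were so and phyl, which turned under quantile normalization and lowess, and toy, which turned on its dimmer probe set. The median log2 ratio of early patterning genes was -0.25 after quantile normalization and -0.14 when the dimmest detected probe set of each gene was used, a setting chosen after seeing the data. That of photoreceptor differentiation genes was -0.25 without probe sets open to cross-hybridization, which left 8 genes and removed pros and svp. Other disc patterning genes moved to 0.028 after quantile normalization and 0.0015 after lowess. The count of members at least 2-fold lower was 1 with the median over detected probe sets, with a mean signal of at least 100, with at least 100 on both arrays and with the dimmest detected probe set, and 4 without a filter. The count at least 2-fold higher was 1 with a minimum of 50 and 1 without a filter. Over all genes, 320 were lower and 160 higher with at least 100 on both arrays, and 1354 lower and 724 higher without a filter, against 609 and 251 in the report. With the smaller SD of 0.29, 12 early patterning genes were lower beyond it, or 11 with at least 100 on both arrays, against 7. With at least 100 on both arrays and the SD of 0.41, 3 photoreceptor genes were lower beyond it, against 5. The count of members higher beyond the SD was 1 with at least 100 on both arrays under either SD (0 photoreceptor genes), against 2, since aos was then left out. These SD settings were chosen after seeing the data. The share of members with the lower signal stayed between 70.0% and 78.4%, beside 48.4% to 53.9% of all genes.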

Other observations

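Annotation terms of the authors' table gave other views of the same genes. Of 11 members annotated to compound eye development, 7 were detected, with a median log2 ratio of -0.52, while the other detected genes of that term had a median of -0.02, with 55.6% lower in Ck1alphaRNAi larvae. For imaginal disc-derived wing morphogenesis the 6 detected members had a median of 0.05 and the other 144 detected genes a median of -0.01. Other detected genes of the Notch signaling pathway term had a median of -0.09, beside -0.63 for its 4 detected members, and those of peripheral nervous system development -0.10, beside -0.20 for 7 detected members. These terms were picked after the values had been seen and share genes with each other.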
